A study of Mus musculus with 4 samples.

Results

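The protocadherin genes were taken as the rows of the deposited table whose gene name begins with Pcdh, which gave 36 of 24637 genes. By name, 2 of them belong to the alpha cluster, 21 to the beta cluster and 1 to the gamma cluster, and 12 lie outside the clusters. Protocadherins are cadherins of the cell surface that bind the same protocadherin on a neighbouring cell, and they are best known from neurons. In the alpha and gamma clusters each variable first exon has its own promoter and is spliced to constant exons shared by the cluster, whereas each beta gene encodes its whole protein in a single exon. The promoter that a neuron uses is chosen with the help of CTCF and cohesin, and DNA methylation keeps unused promoters silent, so that each neuron carries its own mixture of clustered protocadherins. The unclustered members are ordinary genes with expression in particular tissues, among them Pcdh8 (paraxial protocadherin) in forming somites and Pcdh12 in endothelium.

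Polyadenylated RNA was sequenced from 4 libraries, 2 from WT (Taf4+/+) and 2 from Taf4a-/- ESC lines, which carry a null allele of Taf4a with a deletion of internal exons, and each library came from an independent line of C57Bl6J origin. All lines were grown on inactivated MEF feeders, kept for 5 days as EBs in medium with serum and then for 9 days on gelatin, a time that the labels call day 9. The comparison asks how the loss of Taf4, a subunit of the general transcription factor TFIID, changes the RNA of these cells, and no other differentiated or undifferentiated sample was compared here. The libraries held 21732746 to 27733034 reads on genes, and a read was worth 0.877 to 1.11 normalized counts, the unit of the table.

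Taf4a itself had 889 and 678 normalized counts in WT against 1722 and 1799 in the libraries labelled Taf4a-/- (log2 fold change 1.18, SE 0.16, adjusted p = 0.00569 from limma). This count over the whole gene does not separate the deleted exons and was higher, not lower, where the labels give the deletion, so each genotype is named below as the labels give it. Of the fixed cell type markers, all 8 cardiomyocyte genes fell in the libraries labelled Taf4a-/-, with summed normalized counts of 20230 and 22226 in WT against 1567 and 1743. All 7 pluripotency genes were higher there, with sums of 3537 and 1361 against 12695 and 14558, and 6 of 8 fibroblast and mesenchyme genes were lower, with sums from 432585 to 598906 in WT against 50092 to 62440. Macrophage genes (5 of 5 lower, sums of 7463 and 8789 against 36.2 and 65.3) and visceral endoderm genes (7 of 7 lower, 67118 to 85301 against 578 to 718) were lower as well, and C1qa and Alb were at 0 in both libraries labelled Taf4a-/-. The part that these differences in cell make-up had in the values below was not tested, and in such bulk samples fewer cells of a type and less RNA per cell cannot be told apart.

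Most protocadherin genes did not pass the test, and those that did moved in both directions. A gene was tested where its mean over the 4 libraries was at least 10 normalized counts, and called at a Benjamini-Hochberg adjusted p under 0.05 from limma on log2(normalized count + 1), on which changes of genes with few reads look smaller than they are. Of the 36 protocadherin genes 29 were tested, and relative to WT 2 rose and 4 fell in the libraries labelled Taf4a-/-, so that 6 of 29 were called against 28.6% of the 16926 genes tested. Among all tested genes 11.3% were higher and 17.3% were lower, and the median log2 fold change was -0.01. The 2 higher genes were Pcdh8 and Pcdhb20, and the 4 lower genes were the alpha model, Pcdh17, Pcdh18 and Pcdh1. The 7 genes that were not tested were Pcdha3, Pcdhb4, Pcdhb8, Pcdhb10, Pcdhb12, Pcdhb13 and Pcdh15.

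The unclustered genes and the gamma model held most of the summed protocadherin counts, which were not scaled to exon length, in every library. In WT replicate 1 the unclustered genes held 49.6% of the summed protocadherin counts, the gamma model 42.3%, the beta genes 6.42% and the alpha genes 1.71%. In the library labelled Taf4a-/- replicate 1 these shares were 49.9%, 39.5%, 9.79% and 0.746%. The sum over the alpha genes was 2.65-fold higher in WT, and that over the beta genes was 1.32-fold higher in the libraries labelled Taf4a-/-. The sums of the gamma model and of the unclustered genes were 1.29-fold and 1.20-fold higher in WT.

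**Figure D1:**
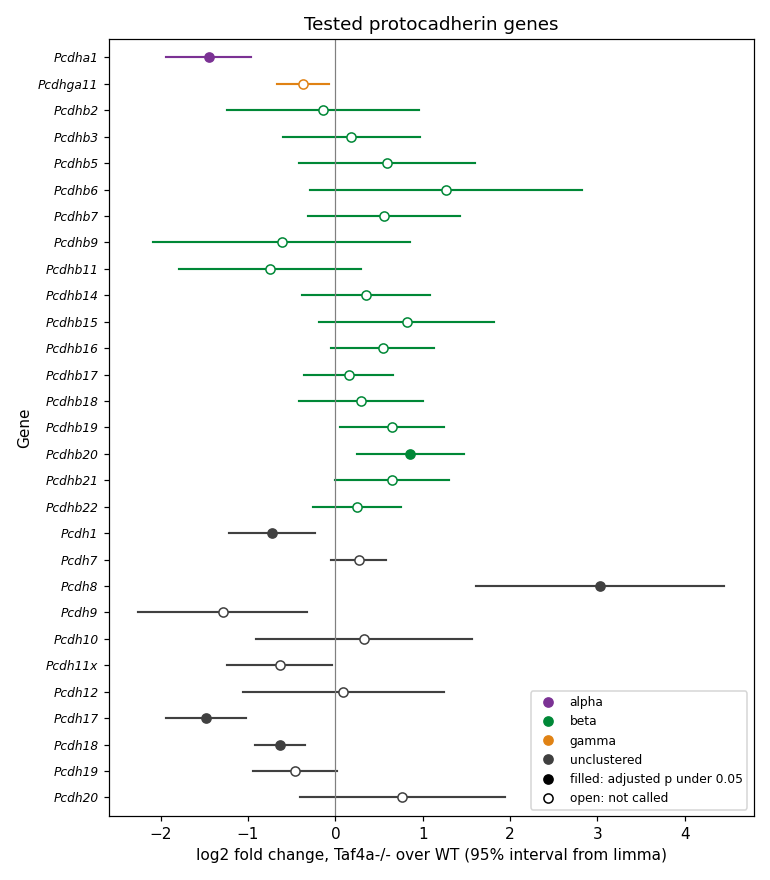
Log2 fold changes of the 29 tested protocadherin genes, libraries labelled Taf4a-/- over WT (horizontal axis), each point one gene with its 95% interval from limma over 2 libraries per genotype. Filled points had an adjusted p under 0.05, open points did not, and colours give the cluster. Pcdh8 lay farthest to the right at 3.03, and Pcdh17 and the alpha model (Pcdha1) farthest to the left at -1.48 and -1.45. Of 16 beta genes 13 lay above 0, beside 8335 of all 16926 genes tested.

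The alpha cluster was represented by a merged gene model that was lower in the libraries labelled Taf4a-/-, and by one rarely read variant. The merged model stands in the table as Pcdha1 (ENSMUSG00000007440, chr18:37089939-37347311 of mm9, plus strand). In the annotation of that build it holds 10 transcripts with 10 different first exons and 3 exons that most transcripts share, and it carries the name Pcdha11, so its count adds up alpha isoforms and says nothing of any one of them. WT replicates 1 and 2 had 375 and 326 normalized counts of it, and the libraries labelled Taf4a-/- had 126 and 128. Both WT libraries stood well above both others, and within each genotype the values lay close together. The log2 fold change was -1.45 (SE 0.20, adjusted p = 0.00570 from limma). Part of its exon sequence overlaps Gm10545 on the other strand, and the library kit keeps no strand, but Gm10545 itself had only 0 to 3.32 normalized counts. Pcdha3, a single variant with its own row, had 3.51 and 3.12 normalized counts in WT and 3.92 and 8.85 in the others, which is 3 to 8 reads and too few to be tested.

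In the beta cluster most fold changes were above 0, but a single gene passed the test. Of 21 beta genes 16 were tested, 1 was higher and 0 were lower, beside 28.6% called among all tested genes. An unadjusted p under 0.05 in limma was reached by 2 of the 16, and by 7193 of all 16926 genes tested. The median log2 fold change of the 16 was 0.45, with a range from -0.75 for Pcdhb11 to 1.27 for Pcdhb6. Of the 16, 13 lay above 0, beside 8335 of all 16926 genes tested. In 11 of the 16 both libraries labelled Taf4a-/- were above both WT libraries and in 1 both were below, where 34.5% and 36.6% of all tested genes were. The summed beta counts were 1425 and 1102 in WT replicates 1 and 2 against 1707 and 1640. WT replicate 2 was the lowest of the 4 libraries in that sum, and the median difference between the WT replicates over the tested beta genes was 0.33 on the log2 scale, beside the median of 0.45 between genotypes. Quantile normalization moved the all-gene median to 0.11 and called 4 beta genes higher (Pcdhb20, Pcdhb19, Pcdhb21 and Pcdhb16), with adjusted p-values from limma of 0.0184 to 0.0396.

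Pcdhb20 was the beta gene that was called. It is annotated in the mm9 gene set as a pseudogene (ENSMUSG00000046191, chr18:37663926-37667476, plus strand), and its normalized counts were 95.6 and 77.9 in WT against 166 and 148. The groups did not overlap, and the gap between them was wider than that within either genotype. Its log2 fold change was 0.86 (SE 0.25, adjusted p = 0.0493 from limma) and ran from 0.71 to 1.19 over the alternatives. The call held with a pseudocount of 10, equal totals and quantile normalization. It was lost with a pseudocount of 0.1, a mean of at least 1 or 50, no filter and no variance trend. The replicate block, limma's voom on reads and leaving out any one of the 4 libraries also ended it.

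The beta genes with the highest level per kb of exon were Pcdhb22, Pcdhb17 and Pcdhb19. Pcdhb22 had 201 and 176 normalized counts in WT and 235 and 211 in the libraries labelled Taf4a-/- (log2 fold change 0.25, 95% interval from -0.25 to 0.75). Pcdhb17 had 203 and 172 in WT and 199 and 218 in the others (log2 fold change 0.15, 95% interval from -0.36 to 0.66). For Pcdhb22 the groups were separate by a narrow margin and for Pcdhb17 they overlapped. Pcdhb19 had 235 and 160.01 normalized counts in WT and 323 and 288 in the others, with no overlap, a log2 fold change of 0.65 and an adjusted p of 0.0956 from limma. Together with Pcdhb16 and Pcdhb20 these 3 genes held 61.2% to 65.0% of the summed beta counts of a library.

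Level and position went together along the beta cluster. The normalized count per kb of exon rose towards the end of the cluster nearest the gamma genes, with a Spearman rho of 0.62 between position and mean level over the 21 genes, which share the same 4 libraries. After the values were seen, the cluster was divided after Pcdhb13. The 12 genes from Pcdhb2 to Pcdhb13 had a median level of 3.63 normalized counts per kb (range 1.63 to 16.7), and the 9 genes from Pcdhb14 to Pcdhb22 a median of 28.6 (range 11.5 to 67.0). All 9 genes of the second stretch were tested and all 9 log2 fold changes were above 0 (median 0.54), with sums of 1129 and 917 in WT against 1471 and 1346. Among all 16926 genes tested, 8335 log2 fold changes were above 0. The cut was made with these values known, so the contrast between the stretches is description only, and the 9 genes share the same 4 libraries. In the first stretch 7 of 12 genes were tested, 0 were called, 4 of the 7 log2 fold changes were above 0, and the sums of 295 and 185 in WT overlapped those of 236 and 294. Over the 16 tested genes, fold change and position had a Spearman rho of 0.26.

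**Figure D2:**
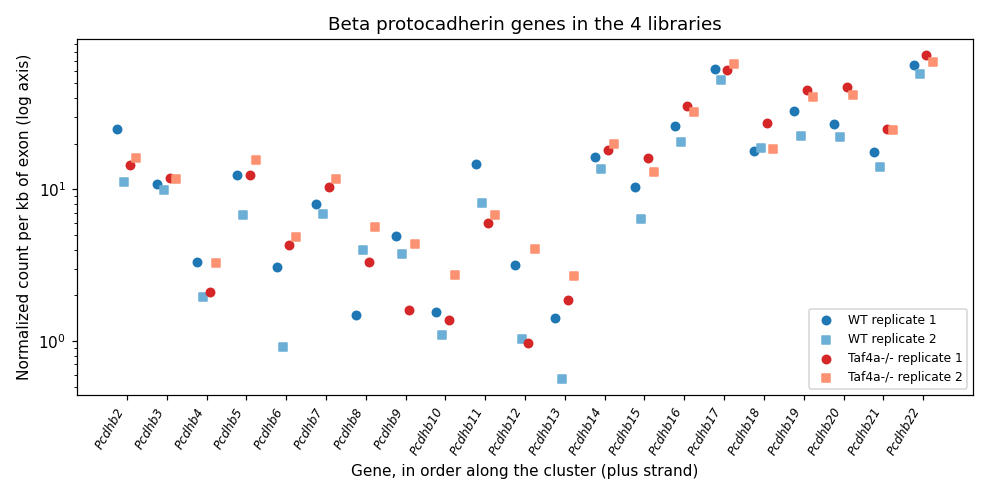
Normalized counts per kb of exon (vertical log axis) of the 21 beta protocadherin genes in the order of the cluster, 1 point per library, with WT in blue and the libraries labelled Taf4a-/- in red. The genes from Pcdhb14 onwards lie higher (median 28.6) than those up to Pcdhb13 (median 3.63), a division made after the values were seen. From Pcdhb14 onwards the red points stand above the blue ones for 7 of 9 genes, beside 34.5% of all tested genes.

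Beta genes resemble one another, and reads could be shared between them. Of all stretches of 50 bases in their exons, 88.0% (Pcdhb12) to 98.2% (Pcdhb13) occurred once in the mm9 genome, where the share was 94.4% for Pcdhb20, 90.2% for the alpha model, 84.8% for Pcdha3 and 98.1% for the gamma model. For the 12 unclustered genes it was 99.9% to 100%. The counts of the beta genes with the lower shares, Pcdhb11 (88.3%) among them, are therefore uncertain, since how the authors' counting treated reads with several matches is not given in the sources used here.

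The gamma cluster also stands in the table as a single merged model, and it had the highest normalized count of the protocadherin rows. This row, named Pcdhga11 (ENSMUSG00000023036, chr18:37833989-38001527 of mm9, plus strand), holds 10 transcripts with 10 different first exons and carries the name Pcdhgc5 in the annotation. RefSeq lists 14 alpha, 22 beta and 22 gamma genes. The single variants of gamma, and those of alpha other than Pcdha3, were not resolved here, C-type variants included. Whether reads on gamma first exons beyond the 10 of the model were counted in this row was not examined. The normalized counts of the gamma model were 9387 and 9412 in WT, against 6895 and 7688 in the libraries labelled Taf4a-/-. Both of these libraries were lower than both WT libraries, which differed from each other by 0.0038 on the log2 scale. The log2 fold change of -0.37 (SE 0.12, 95% interval from -0.66 to -0.07) had an adjusted p of 0.0666 from limma and was not called. Gm16882, a noncoding gene on the other strand that shares exon sequence with the model, had 245 to 354 normalized counts and was not called. Per kb of exon the gamma model had 305 normalized counts on average, against 10.9 for the alpha model, at most 67.0 for a beta gene, 538 for Pcdh7 and 694 for Pcdh18, although its length includes first exons that a given transcript does not use.

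The unclustered genes held both the largest rise and the largest fall. Of 12 such genes 11 were tested, 1 was higher and 3 were lower, beside 28.6% called among all tested genes. The median log2 fold change of the 11 was -0.47, and 6 had an unadjusted p under 0.05 in limma. Among all 16926 genes tested, 7193 did. In 3 of the 11 both libraries labelled Taf4a-/- were above both WT libraries, in 6 both were below and in 2 the groups overlapped. Of all tested genes 34.5% were above and 36.6% below. Per kb of exon the mean levels of the 12 genes spanned from 0.282 normalized counts for Pcdh15 to 694 for Pcdh18.

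Pcdh8 encodes paraxial protocadherin, which acts in cell movements of gastrulation and in the forming of somites. In WT replicates 1 and 2 its normalized counts were 133 and 34.3, against 534 and 591 in the libraries labelled Taf4a-/-. Both of these were above both WT libraries and lay close together, while the WT replicates differed from each other by 1.93 on the log2 scale. The log2 fold change was 3.03 (SE 0.58, adjusted p = 0.0154 from limma). Leaving out WT replicate 2 gave 2.07 (adjusted p = 0.0348), leaving out WT replicate 1 gave 3.99 (adjusted p = 0.0144), and limma without a variance trend gave an adjusted p of 0.061. The WT library with the higher Pcdh8 was also the one with the higher sum of pluripotency genes (3537 against 1361). Of the presomitic mesoderm markers 5 were tested and 1, Lfng, was higher, beside 11.3% higher among all tested genes. The sums over all 7 were 395 and 300.3 in WT and 501 and 538 in the others. Lfng alone had 195 and 169 in WT and 299 and 338 in the others. Tbx6, Dll1, Dll3 and Mesp2 had log2 fold changes of -0.64, 0.12, 0.57 and 1.55, and none of them was called. Msgn1, under the minimum, was at 0 in both WT libraries and at 2.94 and 8.85 in the others. The part of the pluripotency genes or of these markers in the Pcdh8 value was not tested.

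The other delta protocadherins of the same group as Pcdh8, which lack a phosphatase-binding motif in their tails, are Pcdh10, Pcdh17, Pcdh18 and Pcdh19. Pcdh17, which acts in axon extension and at synapses, had 883 and 855 normalized counts in WT and 266 and 362 in the libraries labelled Taf4a-/-. The groups were far apart, with a log2 fold change of -1.48 (SE 0.19, adjusted p = 0.00467 from limma), and the call held in all 14 alternatives. Pcdh18, whose product binds the adaptor Dab1, had 4305 and 4406 normalized counts in WT against 2649.9 and 2985. It was the unclustered gene with the highest level per kb, and the WT replicates nearly coincided. Its log2 fold change was -0.63 (SE 0.12, adjusted p = 0.0141 from limma), and the call was lost without WT replicate 2 (0.0527), without either library labelled Taf4a-/- (0.135 and 0.0552) and without a variance trend (0.0616). 

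Pcdh19, an X-linked gene mutated in an epilepsy of girls, had 338 normalized counts in both WT libraries and 275 and 217 in the others, with a log2 fold change of -0.47 and an adjusted p of 0.126 from limma. The groups did not overlap, and the spread lay within the libraries labelled Taf4a-/-. Pcdh10, which is expressed in brain, had 179 and 60.3 normalized counts in WT and 147 and 116 in the others. The groups overlapped, and WT replicate 2 was the lowest of the 4 libraries. Its log2 fold change of 0.33 (95% interval from -0.91 to 1.56) turned to -0.45 without WT replicate 2.

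Of the delta protocadherins with that motif, Pcdh1 was lower and Pcdh7, Pcdh9 and Pcdh11x were not called. Pcdh1, an adhesion protein of epithelia, had 1743 and 1259 normalized counts in WT and 1011 and 794 in the libraries labelled Taf4a-/-. The groups were separate, and the lower WT library was nearer to the higher of the others than to its own replicate. The log2 fold change was -0.72 (SE 0.20, adjusted p = 0.0435 from limma). The call was lost without WT replicate 1 (0.124), without WT replicate 2 (0.0567), without the library labelled Taf4a-/- replicate 2 (0.183), with equal totals (0.0667), with quantile normalization (0.0541) and without a variance trend (0.118).

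Pcdh7, which acts in retinal axons and embryonic ectoderm, had 2825 and 3238 normalized counts in WT and 3436 and 3841 in the libraries labelled Taf4a-/-. Both of these lay above both WT libraries, and the log2 fold change of 0.26 (95% interval from -0.05 to 0.58) had an adjusted p of 0.171 from limma. Pcdh9, a gene of the nervous system, had 35.9 and 47.8 normalized counts in WT and 18.6 and 14.4 in the others. The groups did not overlap, and the log2 fold change of -1.29 had an adjusted p of 0.0555 from limma, which was 0.0453 with a pseudocount of 10 and 0.0394 without a variance trend. Pcdh11x, another X-linked gene of the brain, had 220.05 and 313 against 181 and 156, with a log2 fold change of -0.64 and an adjusted p of 0.102 from limma.

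Pcdh12, Pcdh15 and Pcdh20 belong to neither group. Pcdh12, a cadherin of endothelium and placenta, had 322 and 152 normalized counts in WT and 162 and 343 in the libraries labelled Taf4a-/-. Each genotype held one high and one low library, and the log2 fold change was 0.09 (95% interval from -1.06 to 1.24). The summed endothelial markers had the same order of libraries within each genotype, with 12224 and 7858 in WT and 6398 and 11021 in the others. Of the 9 endothelial genes 0 were called, beside 28.6% of all tested genes. An unadjusted p under 0.05 in limma was reached by 2 of the 9, and by 7193 of all 16926 genes tested. Pcdh20 had 21.0 and 10.4 normalized counts in WT and 26.4 and 25.4 in the others, with a log2 fold change of 0.77 and an adjusted p of 0.272 from limma. Pcdh15, a part of the tip link of hair cells, had 8.77 and 7.27 normalized counts in WT and 4.89 and 3.32 in the others, which is 3 to 10 reads and was not tested.

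**Figure D3:**
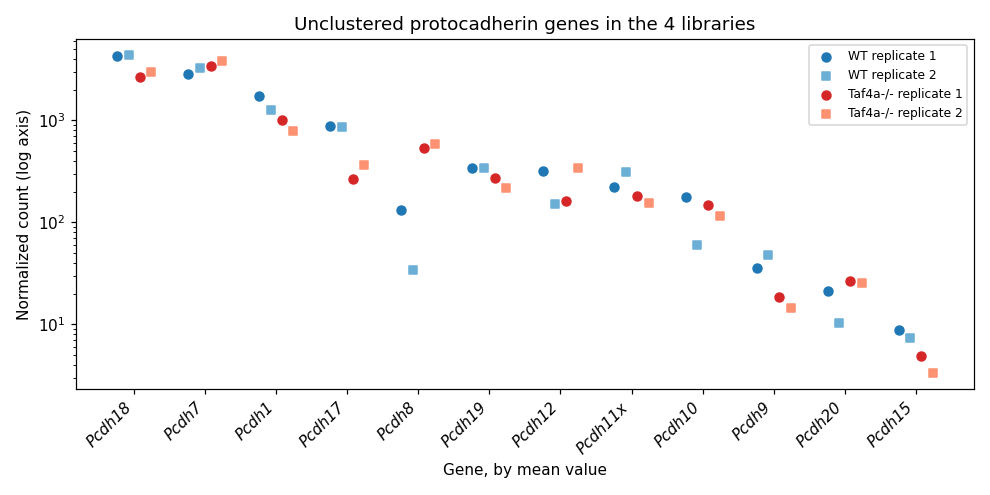
Normalized counts (vertical log axis) of the 12 unclustered protocadherin genes, ordered by their mean, 1 point per library, with WT in blue and the libraries labelled Taf4a-/- in red. Pcdh8 is the gene whose red points (534 and 591) stand farthest above the blue ones (133 and 34.3), and the red points of Pcdh17 (266 and 362) lie below its blue ones (883 and 855).

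The promoters shown are those of Pcdh8, which was higher, and of Pcdh17 and Pcdh18, which were lower, genes picked by their calls. They are the 250 bases before the start of the gene in RefSeq (GRCm38.p6), read 5′ to 3′ in the direction of the gene, and capitals mark the TATA box letters TATAAA, the GC box letters GGGCGG and the CCAAT box on either strand. The stretches are chr14:79771313-79771562 (minus strand) for Pcdh8, chr14:84443313-84443562 (plus strand) for Pcdh17 and chr3:49757317-49757566 (minus strand) for Pcdh18.
Pcdh8: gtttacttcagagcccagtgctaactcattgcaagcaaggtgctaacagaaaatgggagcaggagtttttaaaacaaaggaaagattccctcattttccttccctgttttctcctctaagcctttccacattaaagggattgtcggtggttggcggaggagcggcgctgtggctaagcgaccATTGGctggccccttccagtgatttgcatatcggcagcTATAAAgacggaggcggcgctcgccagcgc
Pcdh17: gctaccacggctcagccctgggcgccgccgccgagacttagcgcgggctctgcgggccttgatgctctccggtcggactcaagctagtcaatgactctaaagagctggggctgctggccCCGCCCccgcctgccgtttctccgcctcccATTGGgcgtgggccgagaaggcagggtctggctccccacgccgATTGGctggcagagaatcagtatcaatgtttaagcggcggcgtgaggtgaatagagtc
Pcdh18: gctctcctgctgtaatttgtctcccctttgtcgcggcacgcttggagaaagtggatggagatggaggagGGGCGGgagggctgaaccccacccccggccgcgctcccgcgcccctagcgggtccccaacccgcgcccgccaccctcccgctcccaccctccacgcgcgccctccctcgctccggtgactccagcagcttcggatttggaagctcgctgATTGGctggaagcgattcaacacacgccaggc

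The Pcdh8 promoter held 1 TATAAA, whose first base lies 30 bases before the start, 1 CCAAT and 0 GGGCGG. The promoters of Pcdh17 and Pcdh18 held 0 TATAAA and 1 GGGCGG each, with 2 and 1 CCAAT. Of the 32851 RefSeq promoter stretches of the same length, 12.4% held TATAAA, 32.7% held GGGCGG and 33.8% held CCAAT, counting both strands. There were 11 CG dinucleotides in the Pcdh8 stretch, 21 in that of Pcdh17 and 23 in that of Pcdh18, where the median of all promoters was 6 (quartiles 2 and 16). Among the 9 unclustered members whose RefSeq promoters were searched, TATAAA was found in Pcdh8 and Pcdh15 and GGGCGG in Pcdh10, Pcdh17, Pcdh18 and Pcdh19. Pcdh1, which was also called lower, was not among the members searched. Pcdh10 and Pcdh19 were not called. Pcdh15, with 8.77 and 7.27 normalized counts in WT and 4.89 and 3.32 in the others, was not tested. These matches describe the letters of the stretches and were not tested against the fold changes.

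The 3 clusters, Pcdh1 and Pcdh12 lie in one region of chromosome 18, and the genes between and around them did not move together. Among 15 such flanking genes 13 were tested, 2 were higher and 2 were lower, where 28.6% of all tested genes were called, and the median log2 fold change was 0.18. On the side of the alpha cluster, Cd14, a receptor of macrophages, had 196 and 301 normalized counts in WT and 4.89 and 7.74 in the libraries labelled Taf4a-/- (log2 fold change -5.09, adjusted p = 0.00134 from limma). Ndufa2, a subunit of respiratory complex I, was lower by a log2 fold change of -0.56 (adjusted p = 0.0219). The germ cell gene Dnd1 and Hars, a tRNA synthetase, were higher, with log2 fold changes of 1.74 and 0.42 (adjusted p of 0.0414 and 0.0413 from limma). Their neighbours Tmco6, Wdr55, Hars2 and Zmat2 had values from 0.17 to 0.24, that of Ik was -0.05, and none of these 5 was called. Taf7, which encodes another TFIID subunit and lies between the beta and gamma clusters, had a log2 fold change of 0.10 (adjusted p = 0.628). Beyond the gamma cluster, Hdac3, Fchsd1 and Arap3 had log2 fold changes of 0.18, 0.27 and 0.06 and were not called. The pairs Dnd1 and Wdr55, Ndufa2 and Tmco6, Hars and Hars2, and Fchsd1 and Rell2 share exon sequence on opposite strands, so that their reads cannot be told apart there. Slc25a2 and Rell2 were under the minimum, with at most 7.01 and 9.35 normalized counts.

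**Figure D4:**
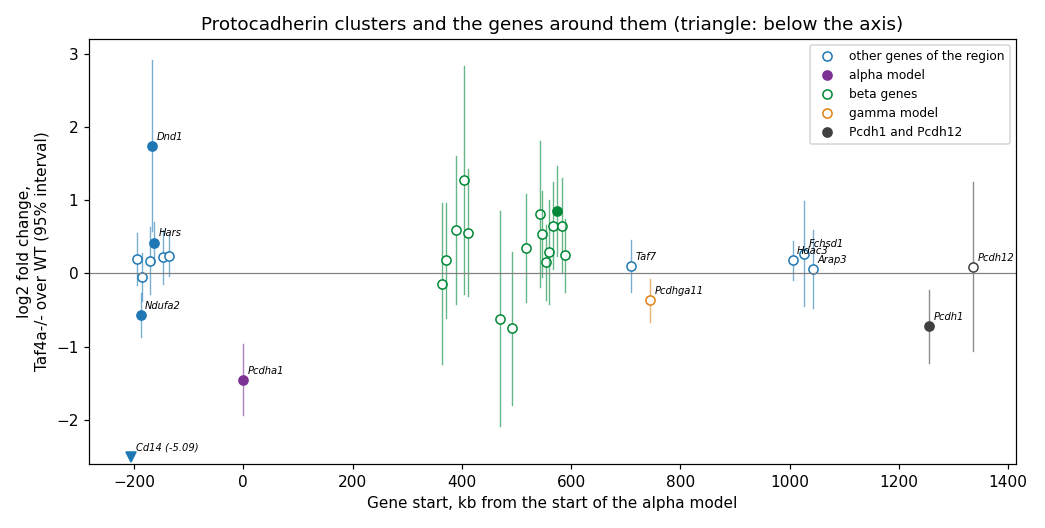
Log2 fold changes of the tested genes of the protocadherin region (vertical axis, libraries labelled Taf4a-/- over WT, with the 95% interval from limma) against the distance of each gene's start from that of the alpha model in kb (horizontal axis). Filled points had an adjusted p under 0.05, and the triangle is Cd14 at -5.09, below the axis. The alpha model lies at -1.45, most beta genes above 0 and the gamma model at -0.37, while Taf7, between the beta genes and the gamma model, is at 0.10.

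Genes of CTCF and cohesin and of DNA methylation and heterochromatin, which include regulators of the clustered promoters, were measured as well. Of 16 tested genes of CTCF and cohesin 6 were higher and 0 were lower, where 11.3% of all tested genes were higher, and the median log2 fold change was 0.28. The cohesin subunits of meiosis Smc1b and Stag3 had the largest values, 1.79 (adjusted p = 0.0158) and 1.28 (adjusted p = 0.0121 from limma), followed by the acetyltransferase Esco1 at 0.69 and the cohesin loader Mau2 at 0.59. Ctcf itself had 4013 and 3140.0 normalized counts in WT and 4215 and 4435 in the libraries labelled Taf4a-/-, and its log2 fold change of 0.28 was not called (adjusted p = 0.195), and Rad21, the cleavable cohesin subunit, had -0.11. Of 17 regulators of DNA methylation and heterochromatin 4 were higher and 0 were lower, beside the same 11.3%, with a median of 0.38. These were Dnmt3l, a cofactor of DNA methylation in germ cells and ESCs, with the largest value, 3.10 (adjusted p = 0.0015 from limma), the demethylase Tet1 with 1.06, the histone methyltransferase Setdb1 with 0.62 and the repressor Rest with 0.53. Smchd1, which keeps protocadherin clusters silent, had a log2 fold change of 0.28 and Dnmt3b one of 1.39, and neither was called (adjusted p of 0.123 and 0.122). The pluripotency genes rose in the same libraries, and their part in these values was not tested.

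Genes of the steps after adhesion were called in shares near the 28.6% called among all tested genes, and those called for shedding were all lower. Of 9 genes for ectodomain shedding and gamma-secretase, the protease that cuts protocadherin tails, 0 were higher and 3 were lower, and the median log2 fold change was -0.16. Among all tested genes 17.3% were lower. The 3 lower genes were the gamma-secretase subunits Aph1c (-2.36, adjusted p = 0.0108 from limma) and Aph1b (-0.97, adjusted p = 0.0231), which are close paralogues whose reads may be split, and the sheddase Adam10 (-0.50, adjusted p = 0.0459). Of 15 effectors, among them focal adhesion kinases and the WAVE complex, 1 was higher and 3 were lower, with a median of -0.04. The kinases Ptk2b (-1.49), Fyn (-0.73) and Prkca (-0.64) were lower, and the WAVE subunit Wasf1 (0.85) was higher. Of 16 other large cadherins 1 was higher, Fat1 at 0.59, and 3 were lower, with a median of -0.25. Cdhr2, a cadherin of intestinal and renal brush borders, had 229.7 and 87.3 normalized counts in WT and 0 in both libraries labelled Taf4a-/-, while Celsr2 and Dsg2 had log2 fold changes of -1.18 and -0.59. Among the called genes of these lists, Dnmt3l, Setdb1, Aph1c, Prkca, Fat1 and Dsg2 share exon sequence with another annotated gene, and the reads of that sequence cannot be told apart.

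Neuronal markers belong to the cells in which clustered protocadherins are best known, and their values differed from gene to gene. Of 9 tested neuronal genes 0 were higher and 3 were lower (Nefl, Snap25 and Gap43), and the median log2 fold change was -1.002, with sums of 2244 and 1739 in WT against 1413 and 1661. These 3 of 9 stand beside 17.3% lower and 28.6% called in either direction among all tested genes. Tubb3, a neuronal tubulin, had 384 and 443 normalized counts in WT and 483 and 531 in the others, and Stmn2, a stathmin of growing axons, had a log2 fold change of 0.52, and neither was called (adjusted p of 0.220 and 0.262 from limma). Rbfox3, a marker of mature neurons, had 2.94 to 9.64 normalized counts. Of 5 tested neural progenitor genes 0 were higher and 1, Fabp7, was lower, and their sums of 3134 and 3892 in WT overlapped those of 5579 and 3748. The part of these cells in the protocadherin values was not tested.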

How the data were processed

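Messenger RNA was measured in 2 WT and 2 Taf4a-/- libraries. The authors mapped reads to mm9/NCBI37 with TopHat (1.3.3 in the submitters' processing notes, which also list HTSeq 0.5.3p1), and deposited normalized counts, which are read counts scaled by a DESeq 2 size factor for each library. The annotation release and the treatment of reads with several matches are not given in the sources used here. All deposited values were whole multiples of the value of 1 read, within 0.01, so the reads of each library could be recovered. Of 24637 genes, the 16926 with a mean of at least 10 were compared by limma (version 3.58.1, R 4.3.3, lmFit, eBayes with a variance trend, no covariates) on log2(value + 1), with Benjamini-Hochberg adjustment over all of them. The script was tested on simulated data. All 24637 identifiers matched the NCBIM37 annotation (GENCODE), which gave positions and exon lengths, and exon bases shared with another gene were left out of values per kb. Pcdhb1 was not analysed here. Promoters were taken from RefSeq. The members and gene lists were chosen with earlier results of these data known. Text names every unclustered gene, the called and the 3 most abundant genes of each cluster, all flanking genes and at most 4 called genes of each other list. Other genes named as not called, the remaining beta genes among them, were chosen after their values were seen. Replicate numbers were treated as names only. P-values measure the spread between these libraries. Figures were drawn with matplotlib 3.10.9.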

Additional observations from a re-analysis of the deposited data

How the results depend on the processing

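The falls of the alpha model and of Pcdh17 were called under every alternative run. Without a variance trend 856 genes were higher and 1741 lower among all genes, against 1906 and 2928, and 0 unclustered genes were higher. With quantile normalization, which moved the median of all genes to 0.11, the split turned to 2676 higher and 2448 lower, 4 beta genes were higher, and the log2 ratios of summed counts were -1.12 for alpha and 0.72 for beta, against -1.41 and 0.41. The number of higher beta genes was 0 with a pseudocount of 0.1, a mean of at least 1, no filter, a mean of at least 50, no variance trend, limma's voom on reads and the replicate block. Leaving out each library in turn gave 624 to 2476 higher and 1222 to 3038 lower genes among all genes, 0 to 2 higher beta genes and 1 to 2 lower unclustered genes, against 3, with 1 left without WT replicate 2 or without the library labelled Taf4a-/- replicate 2. The log2 ratios of summed counts then ran from 0.23 to 0.60 for beta and from -0.45 to -0.29 for gamma. Without its most abundant member the log2 ratio was 0.95 for alpha, which leaves Pcdha3 alone, and -0.056 for the unclustered genes, against -0.26. Log2 fold changes whose sign turned with a library left out ran from -0.45 to 0.63 for Pcdh12 (also -0.449 without WT replicate 2), from -0.45 to 1.10 for Pcdh10, from -0.70 to 0.42 for Pcdhb2, from -1.25 to 0.022 for Pcdhb9, from -0.12 to 0.66 for Fchsd1, from -0.037 to 0.39 for Wdr55, from -0.053 to 0.25 for Taf7, from -0.22 to 0.34 for Arap3 (-0.073 without WT replicate 2) and from -0.17 to 0.061 for Ik (0.037 without WT replicate 2, and 0.0067 with equal totals). None of these genes was called, and the cause was not tested. In these fits the library left alone in its genotype is assumed to vary like the others.

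Same-numbered libraries did not deviate together (correlation 0.012 over 16926 genes), so the numbers were not taken as pairs. With the replicate number as a block, 1536 genes were higher and 2657 lower, and Pcdhb20 had an adjusted p of 0.0704 from limma, the one protocadherin call that the block ended. The planned edgeR and DESeq2 tests were not run, because the decimal commas of the deposited table kept its unit from being checked as counts. Voom on the recovered reads was chosen in their place after the data were seen, and called 1813 genes higher and 2753 lower. With 3 to 10 reads per library, Pcdha3 and Pcdh15 were left out of the main fit. With a mean of at least 1 neither was called (adjusted p of 0.457 and 0.317 from limma), and a change in either could have been missed at this depth.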
